A study of Mus musculus with 6 samples.

Results

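The 10 genes described here are chaperones, folding factors and regulators that the unfolded protein response of the endoplasmic reticulum is known to induce through the transcription factors ATF6 and XBP1. They were taken by symbol from a table of 18228 genes measured in mouse hypothalamus, which held 10 of 10 of them, and 10 of 10 were among the 14702 genes that passed the filter on low counts. The aged group was 3 mice of 22 months and the young group 3 mice of 12 weeks. The study put 5 mice of each age through a behavioural experiment, to look for predictors of cognitive decline with age, and drew 3 of each at random for sequencing of hypothalamus RNA. The labels give no strain, sex, genotype or treatment for either group. The Y-linked gene Ddx3y stood at 72.2, 73.2 and 74.0 CPM (read counts scaled to the library total with TMM factors) in the aged libraries, against 0.586, 0.460 and 0.723 CPM in the young ones, so age and sex cannot be told apart in any difference below.

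The endoplasmic reticulum is where secreted and membrane proteins are folded. When unfolded proteins build up there, the sensors ATF6, IRE1 and PERK start the unfolded protein response: cleaved ATF6 and the product of spliced Xbp1 mRNA raise chaperones and the machinery that removes misfolded proteins, while PERK slows translation and favours that of ATF4. The hypothalamus holds many neurons that make peptide hormones, and such secretory cells depend on this compartment.

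Each library held between 17208291 and 18884403 counted reads. Of 20 hypothalamic markers, among them Avp and Pmch, 20 had reads in every library. Some had few: Kiss1 had 5 reads in young replicate 1, against 38 and 122 in young replicates 2 and 3. Agrp had 6 reads in young replicate 1, against 40 and 23 in the same 2 libraries. Pituitary hormone RNA differed between libraries: the aged libraries had 3 to 5 reads of Gh and 4 to 8 of Prl, against 7 and 6 in young replicate 1, 67 and 125 in young replicate 2, and 1407 and 2561 in young replicate 3, which stood apart in Gh and Prl. Other pituitary markers did not follow them. Cga had 0, 63 and 88 reads in aged replicates 1, 2 and 3, against 0, 49 and 33 in young replicates 1, 2 and 3. Lhb had 20 to 35 reads in each library. Over all tested genes, 474 were higher and 535 lower in aged hypothalamus by edgeR's quasi-likelihood test at a Benjamini-Hochberg adjusted p under 0.05.

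Creld2, Hspa5 and Herpud1 rose in aged hypothalamus, by 1.56-fold, 1.37-fold and 1.35-fold. Of the 10 genes, 3 rose, 0 fell and 7 did not pass. Among all tested genes 3.22% were called higher and 3.64% lower. DESeq2 called 4 of the 10, the same 3 and Xbp1, where it called 8.7% of its tested genes. The 3 aged libraries lay above the 3 young ones in 5 of the 10 genes, and in 15.5% of all tested genes. The median log2 fold change of the 10 was 0.27, beside -0.0035 over all tested genes. Of the 10, 6 had log2 fold changes between 0.24 and 0.64, and Pdia4, Hyou1, Hsp90b1 and Dnajb9 had log2 fold changes between -0.01 and 0.07.

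**Figure D1:**
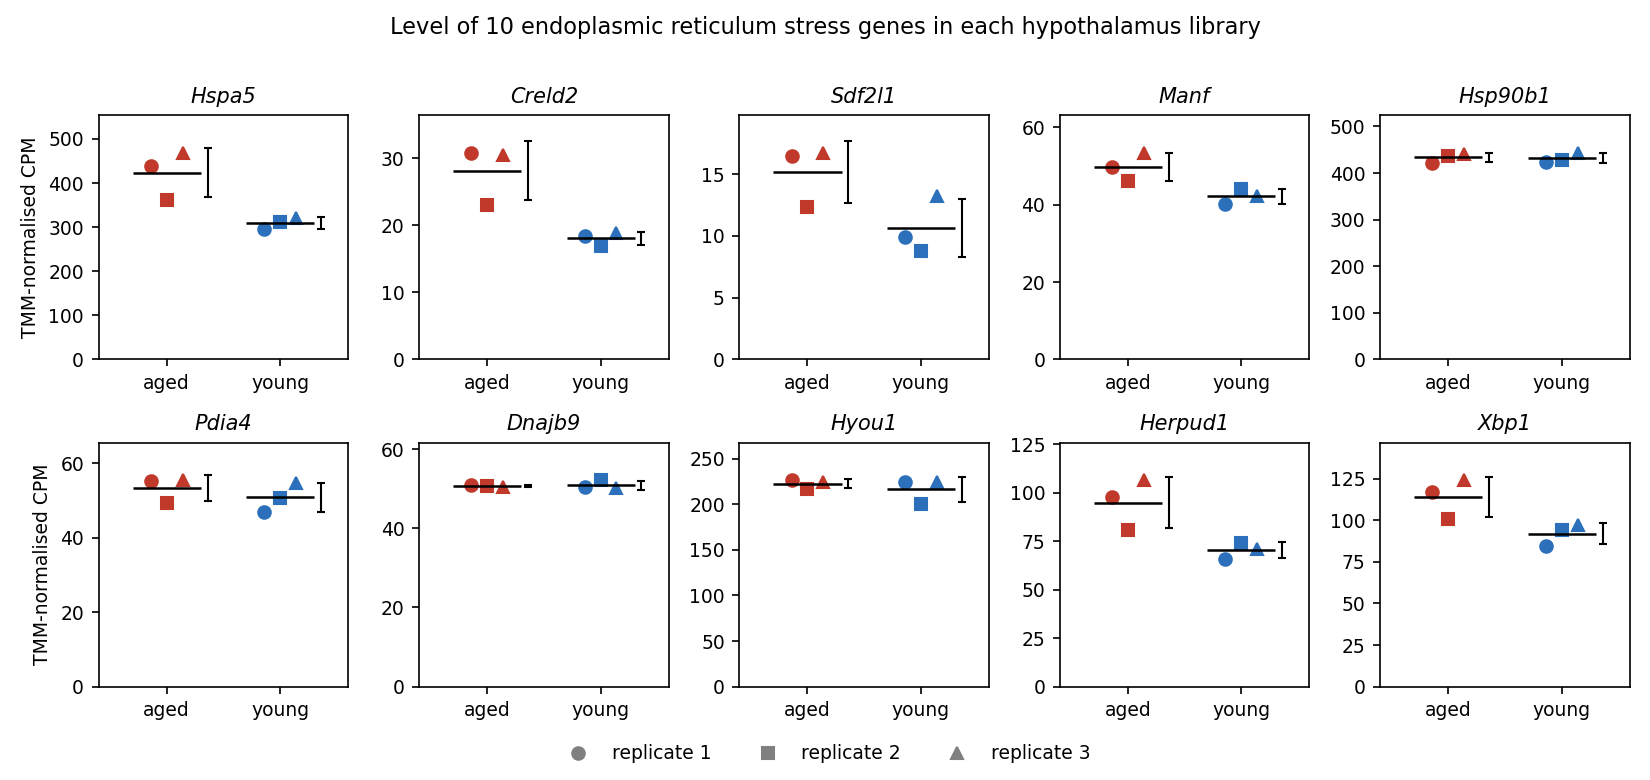
Level of each of the 10 genes in TMM-normalised CPM (vertical axis, from 0) in the 3 aged libraries (red) and the 3 young libraries (blue), with symbols for the replicate number, a line at the group mean and a bar for 1 SD. Hspa5, Creld2, Herpud1, Manf and Xbp1 have every aged library above every young one, while the groups overlap in Sdf2l1, Hsp90b1, Dnajb9, Hyou1 and Pdia4.

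Hspa5 encodes BiP, the Hsp70 chaperone of the compartment, which also binds the stress sensors and keeps them inactive. It had 439, 361 and 469 CPM in aged replicates 1, 2 and 3, against 295, 312 and 322 CPM in young replicates 1, 2 and 3. Every aged library was above every young one, and aged replicate 2 was the nearest to the young libraries. The log2 fold change was 0.45 ± 0.09 (SE, n = 3 each), with an edgeR adjusted p of 0.0227 and a 95% confidence interval of 0.25 to 0.65. With 5039 to 8128 reads of Hspa5 in each library, counting error is small beside the spread between mice.

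Hsp90b1 encodes GRP94, the Hsp90 chaperone of the same compartment. Its level was 422, 437 and 442 CPM in aged libraries and 424, 429 and 444 CPM in young ones, so the groups overlapped throughout. The log2 fold change was 0.00 ± 0.05 (SE, n = 3 each; edgeR adjusted p = 0.967). The 95% confidence interval ran from -0.11 to 0.12. Per length, in FPKM, Hspa5 stood at 169 ± 20.9 in aged and 121 ± 6.35 in young hypothalamus, and Hsp90b1 at 159 ± 4.65 in aged and 155 ± 5.58 in young (SD, n = 3 each). Within a library, where scaling between libraries plays no part, the FPKM of Hspa5 over that of Hsp90b1 was 1.13, 0.900 and 1.16 in aged replicates 1 to 3, against 0.758, 0.792 and 0.789 in young replicates 1 to 3. The pair was chosen after the values were seen, so this is a description without a test. By the same ratio to Hsp90b1, Hspa5, Creld2, Herpud1, Manf and Xbp1 had every aged library above every young one, and Sdf2l1, Pdia4, Hyou1 and Dnajb9 did not. Because Hsp90b1 itself hardly differed between the groups, the ratio returned the same genes that were separate in CPM. It is no further support for them, and the share of all tested genes separate by this ratio was not computed.

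Hyou1 and Dnajb9, whose products work with BiP, did not pass. Hyou1 encodes GRP170, a large Hsp70 relative that exchanges nucleotide on BiP. Hyou1 had 227, 217 and 224 CPM in aged libraries, against 225, 200 and 224 CPM in young ones, and the groups overlapped. Its log2 fold change of 0.04 ± 0.06 (SE, n = 3 each) did not pass (edgeR adjusted p = 0.721), with a 95% confidence interval from -0.10 to 0.18. Dnajb9 encodes ERdj4, a J-domain cochaperone of BiP known to restrain IRE1. It stood at 51.0, 50.7 and 50.5 CPM in aged libraries and 50.3, 52.2 and 50.1 CPM in young ones, the narrowest spread of the 10 genes. The 95% confidence interval of its log2 fold change was -0.14 to 0.13 (edgeR adjusted p = 0.968).

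Sdf2l1 encodes a partner of the ERdj3 and BiP complex that keeps clients soluble. It had 16.5, 12.3 and 16.7 CPM in aged libraries and 9.90, 8.73 and 13.2 CPM in young ones. Young replicate 3 exceeded aged replicate 2, so the groups overlapped. Its log2 fold change of 0.51 ± 0.17 (SE, n = 3 each) was the second largest of the 10 and did not pass (edgeR adjusted p = 0.0966). At 152 to 294 reads in a library it is also the least abundant of them, and its 95% confidence interval was the widest, 0.13 to 0.89. With the trend of counts on gene length removed, the log2 fold change of Sdf2l1 was 0.40 (edgeR adjusted p = 0.187).

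Creld2 encodes a cysteine-rich folding factor with disulfide isomerase activity, and Pdia4 (ERp72) is a protein disulfide isomerase. Creld2 had 30.8, 23.1 and 30.5 CPM in aged libraries, against 18.3, 16.9 and 18.9 CPM in young ones. The groups did not overlap, and aged replicate 2 was again the lowest aged library. Creld2 had the largest log2 fold change of the 10 genes, 0.64 ± 0.12 (SE, n = 3 each; edgeR adjusted p = 0.0178). Pdia4 stood at 55.2, 49.3 and 55.6 CPM in aged libraries and 46.9, 50.8 and 54.8 CPM in young ones. The Pdia4 groups overlapped, and its log2 fold change of 0.07 ± 0.08 (SE, n = 3 each) did not pass (edgeR adjusted p = 0.632; 95% confidence interval -0.11 to 0.25).

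Manf encodes a neurotrophic factor that resides in the endoplasmic reticulum and binds BiP. It had 49.7, 46.2 and 53.5 CPM in aged libraries and 40.2, 44.1 and 42.3 CPM in young ones, without overlap. Its log2 fold change of 0.24 ± 0.08 (SE, n = 3 each) did not pass (edgeR adjusted p = 0.0897). Manf is short, at 868 bases, and over 10 length classes of all tested genes the median log2 fold change ran from 0.11 in the shortest to -0.12 in the longest. With that trend removed, the log2 fold change of Manf was 0.11 (edgeR adjusted p = 0.489). In the GENCODE M21 annotation, exons of Manf overlap exons of Rbm15b on the same strand and of Dcaf1 on the opposite strand, so the count of Manf is uncertain to the extent that such reads were shared or dropped.

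Herpud1 encodes a membrane protein of the complex that moves misfolded proteins out to the proteasome. It stood at 97.6, 80.7 and 107 CPM in aged libraries, against 65.8, 74.3 and 71.2 CPM in young ones. The groups did not overlap, with aged replicate 2 nearest to the young libraries. The log2 fold change was 0.43 ± 0.10 (SE, n = 3 each; edgeR adjusted p = 0.0343). With the trend of counts on gene length removed it was 0.37 and did not pass (edgeR adjusted p = 0.0641).

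Xbp1 encodes the transcription factor whose mRNA IRE1 splices. Counts per gene add the spliced and unspliced forms together, so splicing was not measured. Xbp1 had 117, 101 and 124 CPM in aged libraries, against 84.7, 94.0 and 97.2 CPM in young ones, and every aged library was above every young one. The log2 fold change of 0.31 ± 0.09 (SE, n = 3 each) did not pass in edgeR (adjusted p = 0.064) and passed in DESeq2 (adjusted p = 0.023).

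**Figure D2:**
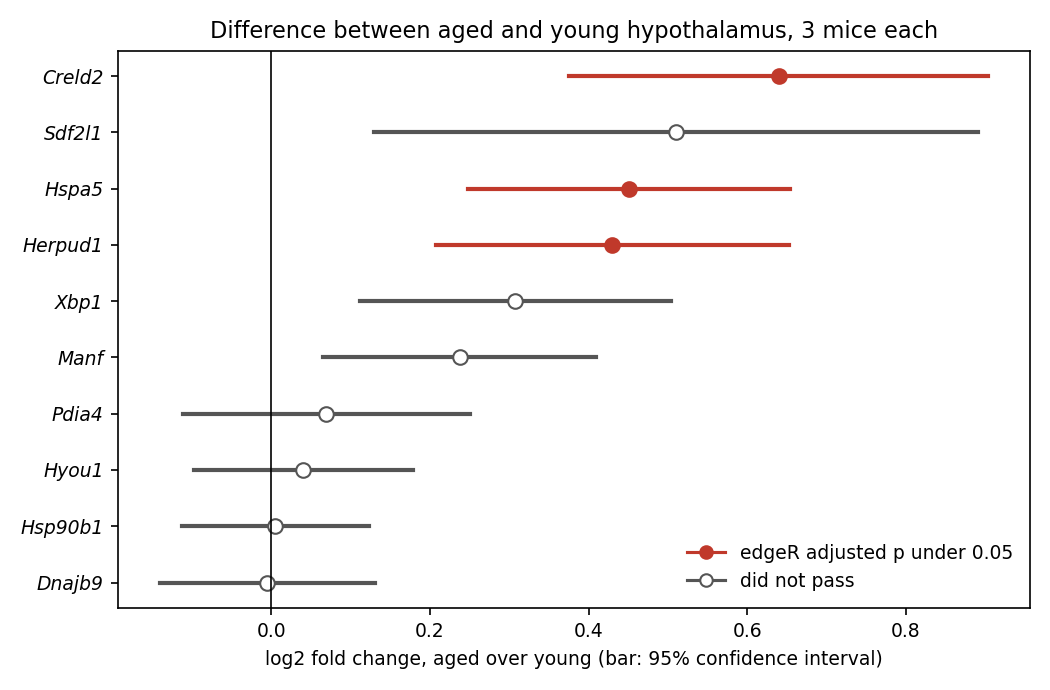
Log2 fold change of each of the 10 genes, aged over young (horizontal axis), with its 95% confidence interval, ordered by size; filled red points passed at an edgeR adjusted p under 0.05 and open grey points did not. Creld2, Hspa5 and Herpud1 passed, the intervals of Sdf2l1, Xbp1 and Manf lie above 0 without passing, and those of Pdia4, Hyou1, Hsp90b1 and Dnajb9 include 0.

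The members span a wide range of levels. Per length, in FPKM, the order in aged hypothalamus was Hspa5 at 169, Hsp90b1 at 159, Manf at 57.9, Xbp1 at 51.8, Herpud1 and Hyou1 at 47.1 each, Dnajb9 at 27.4, Creld2 at 20.8, Pdia4 at 20.3 and Sdf2l1 at 13.8 (means, n = 3). In young hypothalamus it was Hsp90b1 at 155, Hspa5 at 121, Manf at 48.1, Hyou1 at 44.9, Xbp1 at 41.0, Herpud1 at 34.3, Dnajb9 at 27.0, Pdia4 at 19.0, Creld2 at 13.1 and Sdf2l1 at 9.51 (means, n = 3). Among aged libraries the FPKM values of neighbours in this order overlapped for Hspa5 and Hsp90b1, for Manf, Xbp1, Herpud1 and Hyou1 in turn, and for Creld2 and Pdia4. Among young libraries they overlapped for Manf and Hyou1 and for Hyou1 and Xbp1, and the other neighbours were separate. Hspa5 and Hsp90b1 thus overlapped in aged libraries, while in young libraries every value of Hsp90b1 was above every value of Hspa5.

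The promoters of the 3 genes that rose are shown beside that of Hsp90b1, a chaperone of the same compartment whose groups overlapped. They are the RefSeq windows on GRCm38.p6, from 250 bases before to 50 bases after the start of the gene, 5′ to 3′ on the gene's strand. Capitals mark matches to the elements that ATF6 and XBP1 are known to bind: ERSE (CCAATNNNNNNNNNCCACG), ERSE-II (ATTGGNCCACG) and the core of the UPRE (TGACGTG), searched on both strands, with no overlap among the matches. The windows are chr2:34771840-34772139 (plus strand) for Hspa5, chr15:88819396-88819695 (plus strand) for Creld2, chr8:94386179-94386478 (plus strand) for Herpud1 and chr10:86705395-86705694 (minus strand) for Hsp90b1.
Hspa5: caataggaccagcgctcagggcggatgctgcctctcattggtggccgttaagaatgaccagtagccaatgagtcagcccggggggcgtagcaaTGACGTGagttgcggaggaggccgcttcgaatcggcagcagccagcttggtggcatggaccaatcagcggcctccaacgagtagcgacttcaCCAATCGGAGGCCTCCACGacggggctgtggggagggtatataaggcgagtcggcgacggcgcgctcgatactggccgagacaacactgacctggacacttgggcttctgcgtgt
Creld2: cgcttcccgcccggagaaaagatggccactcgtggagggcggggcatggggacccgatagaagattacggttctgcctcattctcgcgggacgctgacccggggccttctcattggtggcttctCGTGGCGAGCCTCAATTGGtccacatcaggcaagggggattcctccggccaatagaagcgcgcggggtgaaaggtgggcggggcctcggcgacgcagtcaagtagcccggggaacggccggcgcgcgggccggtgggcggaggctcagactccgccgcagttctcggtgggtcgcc
Herpud1: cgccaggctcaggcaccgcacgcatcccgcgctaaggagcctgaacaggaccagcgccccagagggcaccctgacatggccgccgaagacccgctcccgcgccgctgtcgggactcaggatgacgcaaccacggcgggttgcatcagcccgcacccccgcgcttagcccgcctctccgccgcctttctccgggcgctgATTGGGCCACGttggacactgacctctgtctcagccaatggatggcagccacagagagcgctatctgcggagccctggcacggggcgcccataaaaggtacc
Hsp90b1: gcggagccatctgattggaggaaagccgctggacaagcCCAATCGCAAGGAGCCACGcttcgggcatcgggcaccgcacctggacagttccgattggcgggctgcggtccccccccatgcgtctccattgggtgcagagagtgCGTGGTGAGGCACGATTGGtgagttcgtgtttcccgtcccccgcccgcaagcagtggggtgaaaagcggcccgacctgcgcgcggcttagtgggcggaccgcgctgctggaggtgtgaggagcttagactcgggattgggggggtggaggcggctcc
Hspa5 held an ERSE from 65 to 47 bases and a UPRE core from 157 to 151 bases before the start. Creld2 held an ERSE on the reverse strand, 126 to 108 bases before the start, and Herpud1 an ERSE-II, 52 to 42 bases before it. Hsp90b1 held 2 ERSE matches, from 212 to 194 bases on the forward strand and from 107 to 89 bases on the reverse strand.

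The table held promoters of 8 of the 10 genes, without Manf and Hyou1. ERSE was found in 3 of these 8, and in 0.119% of the 32851 promoter windows of the table. ERSE-II was found in 1 of the 8 and in 0.0365% of all windows, and the UPRE core in 1 of the 8 and in 2.01% of all windows. The windows of Pdia4, Dnajb9, Sdf2l1 and Xbp1 held none of these letters. A match is a description of the sequence, and it was found both in genes that rose and in Hsp90b1, which did not pass.

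The other genes that serve the same compartment were examined as lists. Of 31 tested genes for folding in the endoplasmic reticulum outside the 10, 0 passed in edgeR, 0 in DESeq2 and 0 in limma-voom, where limma-voom called 6.35% of all tested genes, while 6 had an unadjusted p under 0.05 (26.2% of all tested genes did). The median log2 fold change of this list was 0.02. Its smallest adjusted p belonged to Sdf2, the paralog of Sdf2l1 (0.15 ± 0.06, edgeR adjusted p = 0.127), Uggt2, a glucosyltransferase that senses misfolded glycoproteins (-0.23 ± 0.09, edgeR adjusted p = 0.133), and Pdia6, a disulfide isomerase (0.20 ± 0.08, edgeR adjusted p = 0.137), all log2 fold changes with SE. With the length trend removed, Sdf2 stood at 0.06. Of 27 genes for degradation of misfolded proteins, 0 passed in edgeR, 1 in DESeq2 and 0 in limma-voom, and 4 had an unadjusted p under 0.05. The gene DESeq2 called was Sel1l, the scaffold of the ubiquitin ligase that Herpud1 joins. Sel1l had 210, 213 and 201 CPM in aged libraries, against 245, 238 and 235 CPM in young ones, with every aged value below every young one (log2 fold change -0.20 ± 0.05, edgeR adjusted p = 0.0516). With the length trend removed, the log2 fold change of Sel1l was -0.15 (edgeR adjusted p = 0.124). Of 43 genes for entry into the compartment and export from it, 0 passed in edgeR, 0 in DESeq2 and 0 in limma-voom, 7 had an unadjusted p under 0.05, and the median was 0.01.

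Of 17 genes for the stress sensors and their processing, 0 passed in edgeR, 0 in DESeq2 and 0 in limma-voom, 1 passed in limma-trend on log2(FPKM + 1), which called 6.18% of all tested genes, and 3 had an unadjusted p under 0.05. The gene limma-trend called was Rtcb, the ligase that joins Xbp1 mRNA after IRE1 cuts it. Rtcb stood at 151, 157 and 160 CPM in aged libraries and 135, 143 and 132 CPM in young ones, without overlap (log2 fold change 0.19 ± 0.06, edgeR adjusted p = 0.0757). With the length trend removed, the log2 fold change of Rtcb was 0.13 (edgeR adjusted p = 0.221). Of 34 genes of the ATF4 branch, 4 rose, 0 fell and 30 did not pass in edgeR, with a median log2 fold change of 0.07, and 12 had an unadjusted p under 0.05. Over all tested genes 3.22% were called higher and 3.64% lower, and 26.2% had an unadjusted p under 0.05. Limma-voom called 4 higher, and DESeq2 called 5 higher and 1 lower. The 2 further genes in DESeq2, named after their values were seen, were Ddit3, the transcription factor CHOP (edgeR log2 fold change 0.38 ± 0.10, adjusted p = 0.0515), and Slc7a11, a cystine transporter (edgeR log2 fold change -0.53 ± 0.19, adjusted p = 0.115). Atf3, a transcription factor of many stress responses, had 11.5, 7.32 and 14.7 CPM in aged libraries, against 0.938, 0.747 and 0.779 CPM in young ones. Its log2 fold change of 3.75 ± 0.30 (edgeR adjusted p = 0.000503) was the largest of the list. Cebpb, a transcription factor also of inflammation, rose by 1.42 ± 0.16 (edgeR adjusted p = 0.00386), Ppp1r15a, which restores translation after PERK has acted, by 0.63 ± 0.12 (edgeR adjusted p = 0.0207), and Atf4 itself by 0.35 ± 0.08 (edgeR adjusted p = 0.0338) on the log2 scale. With the length trend removed Atf4 was 0.26 and did not pass (edgeR adjusted p = 0.114). Leaving out single libraries, Atf4 passed in 2 of 6 fits (without aged replicate 2 and without young replicate 2) and Ppp1r15a in 1 of 6, the one without aged replicate 2, while Atf3 and Cebpb passed in 6 of 6.

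Heat shock chaperones, which HSF1 controls, were examined as a list outside the compartment. They were mainly those of the cytosol, and Hspe1 among them is mitochondrial. Of 24, 10 rose, 0 fell and 14 did not pass, with a median log2 fold change of 0.32. Over all tested genes 3.22% were called higher and 3.64% lower. DESeq2 called 15 of the 24, where it called 8.7% of its tested genes, and limma-voom 10, where it called 6.35%. Without aged replicate 2, 16 of the 24 passed, where 1633 of all tested genes did. Leaving out each of the others gave 4 to 7, where 150 to 579 of all tested genes passed. Robust edgeR called 7 of the 24 and 1098 of all tested genes. Hspa1b had 88.4, 27.5 and 159 CPM in aged replicates 1, 2 and 3, against 5.74, 7.18 and 4.78 CPM in young replicates 1, 2 and 3. Hspa1b passed in the main fit (edgeR adjusted p = 0.00719) and did not pass in robust edgeR (adjusted p = 0.0686). Dnajb1, a J-domain partner of Hsp70, had 177, 124 and 202 CPM in aged libraries, against 66.8, 86.6 and 65.4 CPM in young ones. Hspa1a and Hspa1b are near copies, so reads may have been divided between them.

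**Figure D3:**
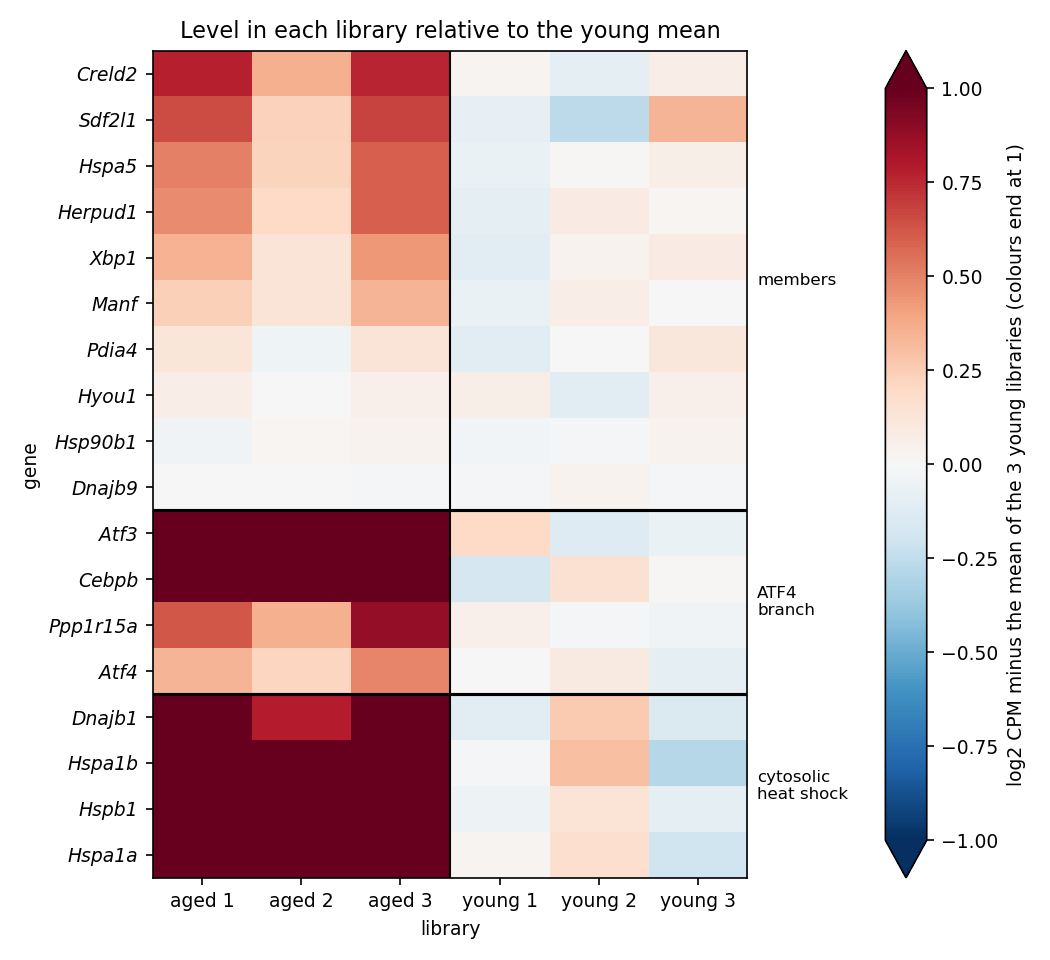
Log2 CPM of each gene (rows) in each library (columns, aged left of young) minus the mean of the 3 young libraries, with colours ending at 1 either way; the 10 genes are at the top, then the 4 named genes of the ATF4 branch and the 4 named cytosolic heat shock genes. The column of aged replicate 2 is paler than those of aged replicates 1 and 3 in most rows, and Hsp90b1 and Dnajb9 are near white in all libraries.

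Aged replicate 2 was the lowest of the aged libraries in 8 of the 10 genes and in 39.2% of all tested genes. It was the lowest in 21 of the 24 heat shock genes, 21 of the 34 of the ATF4 branch and 9 of the 17 sensor genes. It was the lowest in 13 of the 31 for folding, 10 of the 27 for degradation and 9 of the 43 for entry and export. In those 3 lists aged replicate 1 was the lowest in 13, 12 and 20. These counts are a description without a test. The exceptions among the 10 genes were Hsp90b1 and Dnajb9. Summed over the 10 genes, aged replicates 1, 2 and 3 had 1506, 1378 and 1572 CPM, against 1260, 1282 and 1337 CPM in young replicates 1, 2 and 3. Young replicate 3, which stood apart in Gh and Prl, had the highest young sum, so its omission raises the summed difference by construction. Without it the log2 fold changes were 0.49 for Hspa5, 0.68 for Creld2, 0.71 for Sdf2l1, 0.45 for Herpud1, 0.36 for Xbp1 and 0.25 for Manf, and those of Pdia4, Hyou1, Hsp90b1 and Dnajb9 ran from -0.01 to 0.14.

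At an adjusted p under 0.1, 6 of the 10 genes passed, where 14.9% of all tested genes did, and under 0.01, 0 of the 10 passed, where 0.979% did. The calls depended on single libraries. Without aged replicate 2, 6 of the 10 genes passed: Hspa5, Creld2, Sdf2l1, Manf, Herpud1 and Xbp1, where 1633 of all tested genes passed. Without aged replicate 1, aged replicate 3 or young replicate 1, 0 of the 10 passed in edgeR. Of all tested genes 1.64%, 1.01% and 1.77% passed, in that order. In these fits 6, 5 and 6 of the 10 had an unadjusted p under 0.05, as had 20.2%, 18.3% and 21.5% of all tested genes. Without young replicate 2 or young replicate 3, Creld2 alone of the 10 passed, where 3.9% and 2.67% of all tested genes did. The log2 fold changes moved less than the calls: Hspa5 ran from 0.38 to 0.56 and passed in 1 of 6 such fits, Creld2 from 0.58 to 0.78 and passed in 3 of 6, and Herpud1 from 0.35 to 0.55 and passed in 1 of 6. Over all tested genes the number called ran from 150 to 1633 in these fits, which have 2 mice in one group.

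**Figure D4:**
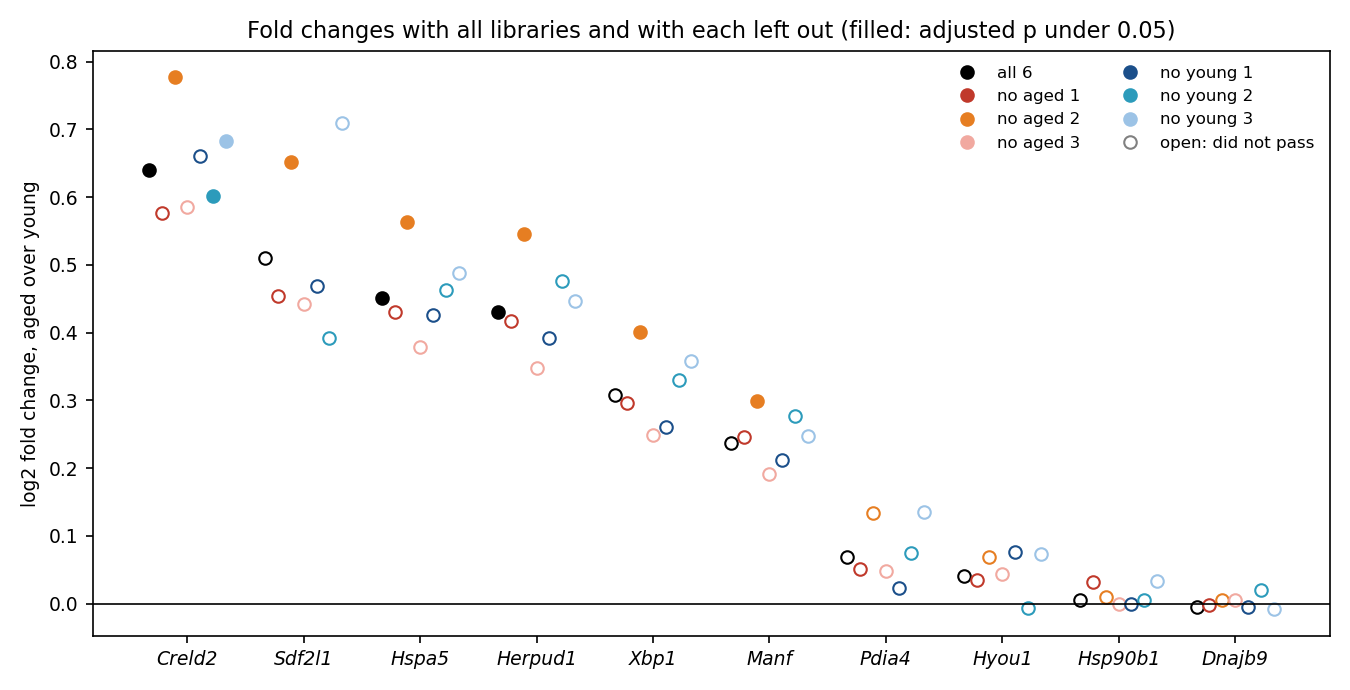
Log2 fold change of each of the 10 genes, aged over young (vertical axis), with all 6 libraries (black) and with each library left out in turn (colours); filled points passed at an edgeR adjusted p under 0.05 and open points did not. Creld2, Sdf2l1, Hspa5, Herpud1, Xbp1 and Manf stay above 0 in each fit, and except for Sdf2l1 are highest without aged replicate 2, while Hsp90b1 and Dnajb9 stay within 0.04 of 0.

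Markers of several cell types and neighbouring regions differed between the same libraries. The counts below are of edgeR calls, which over all tested genes were 3.22% higher and 3.64% lower. For a list of about 10 genes, 1 call is therefore little beside that share. Of 12 microglial markers 5 were higher and 1 lower, and their summed level was 460 to 506 CPM in aged and 401 to 423 CPM in young libraries. Of 12 astrocyte markers 3 were lower, with a summed level of 3327 to 4490 CPM in aged and 4893 to 5081 CPM in young libraries, and of 10 pericyte and smooth muscle markers 3 were lower (191 to 216 CPM in aged, 263 to 314 CPM in young). Of 10 fibroblast markers 4 were lower (185 to 210 CPM in aged, 250 to 262 CPM in young), and of 9 of oligodendrocyte precursors 2 were lower (381 to 457 CPM in aged, 511 to 606 CPM in young). Of 10 oligodendrocyte markers 1 was lower, and the summed levels overlapped (7236 to 7541 CPM in aged, 6580 to 8359 CPM in young). Of 11 endothelial markers 1 was higher and 3 lower, and the summed levels also overlapped (432 to 472 CPM in aged, 373 to 450 CPM in young). Of 9 tested for thalamus and habenula 1 was higher and 2 lower (413 to 464 CPM in aged, 508 to 809 CPM in young), and of 9 tested for cortex, hippocampus and amygdala 2 were lower (130 to 144 CPM in aged, 156 to 373 CPM in young). Young replicate 2 held the highest sum of both, 809 and 373 CPM, against 508 to 541 and 156 to 200 CPM in the other young libraries. Slc17a7 is in both of these lists, so their counts and sums are not separate. Likewise the oligodendrocyte precursor list shares Pdgfra with the fibroblast list and Cspg4 with the pericyte and smooth muscle list. Aged replicate 2 held the lowest aged sum of astrocyte markers, 3327 CPM against 4381 and 4490 CPM in aged replicates 1 and 3. Its sum of oligodendrocyte precursor markers was also the lowest, 381 CPM against 457 and 452 CPM. Its sum of microglial markers was the highest, 506 CPM against 460 and 470 CPM. Of 15 neuronal markers 0 passed in edgeR and 2 had an unadjusted p under 0.05 (7354 to 7612 CPM in aged, 7497 to 8230 CPM in young). Of the 20 hypothalamic markers 3 were higher and 1 lower, and 15 had an unadjusted p under 0.05. That p was reached by 26.2% of all tested genes. The log2 fold changes of these 20 ran from -1.05 to 1.59. Their summed level was 1746 to 1837 CPM in aged and 1675 to 1831 CPM in young libraries. Plasma cells are known to be rich in these chaperones. Of 7 measured B and plasma cell markers 2 passed the filter, with 1.96 to 3.01 CPM in aged and 2.87 to 3.58 CPM in young libraries, and Ms4a1 and Mzb1 were at 0 in some libraries. In bulk tissue a change in the number of cells of a type and a change in RNA per cell cannot be told apart, and the part of these markers in the values of the 10 genes was not tested.

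The 4 genes outside the list whose pattern over the 6 libraries was most like the mean of the 10 were Ahsa1, Rab43, Il11ra1 and Cog6, with root mean square differences of 0.0206 to 0.0266 in centred log2 CPM. Ahsa1, an activator of Hsp90 in the cytosol, had 135, 115 and 133 CPM in aged libraries and 102, 105 and 110 CPM in young ones, and did not pass (edgeR adjusted p = 0.0567). Ahsa1 passed in 7 alternatives, among them DESeq2 (adjusted p = 0.0259), and did not pass in 12. Among those 12 was the fit with the length trend removed (log2 fold change 0.19, edgeR adjusted p = 0.17). It too was chosen for its likeness, so these p are no independent support. Cog6, a subunit of a Golgi tethering complex, had 48.8, 43.9 and 49.7 CPM in aged libraries and 37.9, 38.8 and 39.9 CPM in young ones (edgeR adjusted p = 0.0467). Cog6 was chosen for its likeness to the mean of the 10, so its p is no independent support, and it did not pass with the length trend removed (0.0638), under the replicate block (0.0514) or in 5 of 6 fits that left out a library (0.0841 to 0.171), all edgeR adjusted p.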

How the data were processed

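Hypothalamus RNA of 6 mice was sequenced. Per the labels' protocols, total RNA came from the mirVana kit and polyadenylated RNA was made into stranded TruSeq libraries. The submitters' processing notes name, without versions, HISAT2, HTSeq, Trimmomatic, Cufflinks, DESeq and GRCm39, with annotation release and strand setting not given in the sources used here. The counts were deposited as whole reads per gene and are not normalized. The deposited FPKM values equal the authors' counts divided by library total and a single length per gene, within a relative tolerance of 1e-06, for 18228 genes. That length was derived from the same counts and FPKM values, so the match does not check it against an annotation. Counts were tested with edgeR 4.0.16 (R 4.3.3): filterByExpr (minimum count 10, minimum total 15), TMM factors, quasi-likelihood test, aged against young with no covariate, adjusted p over 14702 genes. CPM values are TMM-normalised, and the biological coefficient of variation was 8.52%. SE and 95% intervals come from that test. The script was tested on simulated data. Each library is a separate mouse.

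The 10 genes and all lists were chosen with earlier results of these data known. Genes were named by rule: the 10, up to 4 per pathway list by adjusted p, and the 4 nearest in pattern. Gene lists have no set test. Alternatives were other scalings and filters, DESeq2 1.42.0, limma 3.58.1 (voom, and trend with a pseudocount of 1 or 0.1 on FPKM), robust edgeR, removal of a length trend, omission of X- and Y-linked genes, a replicate block, other thresholds and leaving out each library. Protein sequences were not used here.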

Additional observations from a re-analysis of the deposited data

How the results depend on the processing

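The 3 calls of Hspa5, Creld2 and Herpud1 were kept under each scaling, filter and tool tried, robust estimation and omission of sex-linked genes. The 10 genes are autosomal, so that omission hardly touches their tests and cannot tell age from sex. With the length trend removed 2 of the 10 genes passed, Hspa5 and Creld2. At an adjusted p under 0.1, 6 passed (14.9% of all tested genes), and under 0.01, 0 did (0.979%). Leaving out single libraries gave 0 to 6 of the 10 genes, 150 to 1633 of all genes, 2 to 9 of the ATF4 branch and 4 to 16 heat shock genes. It gave 0 to 1 for folding, 0 to 1 for entry and export, 0 to 2 for degradation and 0 to 1 for sensors. Of the degradation list 1 passed in DESeq2 and 1 under the replicate block; of the sensors 1 passed with total counts alone, 1 on log2(FPKM + 1) and 1 on log2(FPKM + 0.1). The replicate block gave 5 of the 10 genes and 1190 of all genes; same-numbered libraries had correlated deviations of 0.0953, 0.0374 and -0.138, and not every library correlated best with its own number. The cause of these differences was not tested. Without TMM factors 627 genes were higher and 446 lower, and on log2(FPKM + 1) 616 and 293. No member was called lower under any alternative. Fold changes near 0 changed sign: Hsp90b1 was -0.0228 with the length trend removed and -0.000417 without young replicate 1 (-0.000417 to 0.033 without single libraries); Hyou1 was -0.00587 without young replicate 2 (to 0.0768 without others); Dnajb9 was 0.0239 with total counts alone, 0.0035 with upper quartile factors, 0.0024 without the filter, 0.0232 on log2(FPKM + 1), 0.0239 on log2(FPKM + 0.1), and -0.0079 to 0.0198 without single libraries. The ATF4 branch held 1 lower call in DESeq2 and 1 without aged replicate 2.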
